A study of Mus musculus with 7 samples.

Results

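The genes described here are 10 mouse genes of the antioxidant defence: the superoxide dismutases Sod1 and Sod2, catalase (Cat), the glutathione peroxidases Gpx1 and Gpx4, the peroxiredoxins Prdx1 and Prdx2, thioredoxin (Txn1), the transcription factor NRF2 (Nfe2l2) and its inhibitor Keap1. They were taken by name from a table of 37620 genes, all 10 were found, and 8 passed the expression filter of at least 1 FPKM in at least 3 libraries (8033 genes in all). FPKM is fragments per kilobase of gene, scaled to the library, so it is a level relative to the other RNA of the same oocyte. RNA was measured in 7 mature mouse oocytes at MII, the stage at which the egg is ovulated, with 1 oocyte per library. The 4 KO oocytes had the genotype Hiraf/f, Zp3-Cre and the 3 WT oocytes were Hiraf/f without Cre, so both groups carried floxed Hira alleles. The WT libraries are WT1, WT2 and WT4, with no WT3 among them. Sample titles of both groups carry the tag Zp3-Cre, so the tag alone does not tell the genotypes apart. The Zp3 promoter is active in growing oocytes and not in other cells of the animal, and the labels give no strain, age, animal or day. With 1 cell per library and no animal named, each genotype counts as 1 sample, so no test of the genotype was made and the SDs below are the spread between single oocytes. "Higher" and "lower" describe these libraries.

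Superoxide, a by-product of respiration, is converted to hydrogen peroxide by superoxide dismutases, which sit in the cytosol (Sod1) and in mitochondria (Sod2). Hydrogen peroxide is then removed by catalase, glutathione peroxidases and peroxiredoxins, and peroxiredoxins are in turn reduced by thioredoxin. NRF2 switches on many of these genes through antioxidant response elements, while KEAP1 holds it for breakdown by the CUL3 ubiquitin ligase until oxidants or electrophiles modify KEAP1. The MII oocyte makes almost no new RNA, so its transcripts are those stored during growth.

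HIRA is a chaperone that places histone variant H3.3 on DNA outside replication, and the comparison asks how oocytes that lost it during growth differ at maturity. Hira itself was at 0.094, 0.095, 0.024 and 0.10 FPKM in KO1 to KO4, against 0.31, 0.35 and 0.29 FPKM in WT1, WT2 and WT4, with no overlap. The level in KO oocytes was 24.7% of that in WT oocytes, summed over the whole gene and not only its deleted part. Hira was below 1 FPKM in every oocyte, so it did not pass the filter. Its values rest on 12, 15, 5 and 17 reads in KO1 to KO4, against 42, 55 and 35 reads in WT oocytes. Reads in genes, worked out from the steps between low FPKM values, ranged from 15340782 to 25940519 per library. Differences between genotypes are given as KO minus WT, on means of log2(FPKM + 1). Their median over all 8033 genes was 0.18 in the deposited values, against 0.00 when libraries were quantile normalized and -0.01 when they were scaled by median ratios, so 0.18 is the difference of a typical gene. All 14 oocyte markers examined were above the filter, with a summed level of 15520 to 18294 FPKM in KO and 24322 to 25012 FPKM in WT oocytes. Of these, 6 were over 1.5-fold lower in KO, beside 7.92% of all genes. When quantile normalized, Gdf9 (-0.46), Bmp15 (-0.44), Dppa3 (-0.20) and Oosp1 (-0.47) came within 1.5-fold, and Zp2 and Btg4 stayed past it. With median-ratio scaling all 6 stayed past it. Of 17 cumulus and granulosa cell markers, 14 averaged below 1 FPKM in both genotypes, and Amh, Amhr2, Foxl2, Lhcgr, Hsd17b1, Npr2 and Tnfaip6 were at 0 in every library. Their summed level was 32.9 to 36.7 FPKM in KO and 23.5 to 25.7 FPKM in WT oocytes, and its part in the results below was not tested. The 3 above the filter were Fshr, Nr5a2 and Cyp19a1. Fshr was at 0, 2.99, 4.34 and 4.51 FPKM in KO1 to KO4 and at 0 in every WT oocyte, so it passed the filter through KO oocytes alone. Nr5a2 averaged 7.25 ± 0.904 FPKM in KO and 2.53 ± 0.994 FPKM in WT oocytes, without overlap. Cyp19a1, the largest part of the sum, averaged 24.6 ± 3.77 FPKM in KO and 22.0 ± 1.78 FPKM in WT oocytes, with overlap. Adult globin genes were at 0 in every library, no white blood cell marker of 9 passed the filter, and the 8 stroma and vessel markers summed to 2.98 to 5.32 FPKM in KO and 5.73 to 7.44 FPKM in WT oocytes.

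Promoter sequences of 4 members are shown because they include the 3 genes whose KO and WT oocytes did not overlap (Sod1, Prdx1 and Nfe2l2) and, for contrast, Keap1, which was almost absent. Over all genes above the filter, 18.9% lay higher and 8.94% lower in KO without overlap. Each is the 250 bases before the RefSeq start site, 5′ to 3′ on the gene's strand (GRCm38.p6): chr16:90220512-90220761 on the plus strand for Sod1, chr4:116685349-116685598 on the plus strand for Prdx1, chr2:75704664-75704913 on the minus strand for Nfe2l2 and chr9:21239333-21239582 on the minus strand for Keap1. Capitals mark the fixed letters of the antioxidant response element core (TGACNNNGC, on either strand) and of the TATA box (TATAAA, on either strand).
Sod1: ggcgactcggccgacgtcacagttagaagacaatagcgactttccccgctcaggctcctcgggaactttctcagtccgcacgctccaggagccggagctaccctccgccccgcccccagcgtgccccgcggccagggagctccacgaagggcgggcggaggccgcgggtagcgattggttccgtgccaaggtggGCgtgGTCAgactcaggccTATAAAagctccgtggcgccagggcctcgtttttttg
Prdx1: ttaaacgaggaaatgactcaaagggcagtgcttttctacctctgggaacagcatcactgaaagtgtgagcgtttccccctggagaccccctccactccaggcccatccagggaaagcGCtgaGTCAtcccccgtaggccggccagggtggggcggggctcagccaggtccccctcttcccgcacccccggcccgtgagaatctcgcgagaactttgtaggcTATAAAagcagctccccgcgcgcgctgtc
Nfe2l2: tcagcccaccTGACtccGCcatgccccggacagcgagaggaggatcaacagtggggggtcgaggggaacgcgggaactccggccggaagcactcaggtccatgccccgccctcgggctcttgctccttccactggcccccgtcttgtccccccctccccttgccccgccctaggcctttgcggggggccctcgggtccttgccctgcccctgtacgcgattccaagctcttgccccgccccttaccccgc
Keap1: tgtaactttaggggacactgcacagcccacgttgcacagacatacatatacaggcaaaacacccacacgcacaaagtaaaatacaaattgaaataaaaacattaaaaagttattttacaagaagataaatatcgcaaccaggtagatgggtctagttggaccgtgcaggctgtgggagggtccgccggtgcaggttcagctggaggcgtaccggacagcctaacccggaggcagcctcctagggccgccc
The search covered RefSeq windows of 250 bases before to 50 after the start, of which Gpx4 had 4 and each other member 1. The response element core was found in the windows of 3 of the 10 genes: Sod1 at position -56, Prdx1 at -133 and Nfe2l2 at -240, counted from the start site to the motif's leftmost base. These were 3 of the members' 13 windows, while 12.4% of all 32851 windows held it, and 14.8% of windows of genes above the filter. The 3 genes with a match were also the 3 without overlap between genotypes, 2 of them higher and 1 lower in KO oocytes, which was noticed after the values were seen. TATAAA stood at -37 in Sod1 and -29 in Prdx1, the 2 most abundant members, and at -160 in Txn1. That is 3 of the 13 windows, against 13.6% of all windows and 8.23% of windows of genes above the filter. The GC box (GGGCGG, on either strand) was present for all 10 genes. It was in 12 of their 13 windows, against 59.6% of windows of genes above the filter. The 2 motifs in capitals did not overlap each other. A match describes letters and not a bound site.

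Sod1 (ENSMUSG00000022982), the cytosolic copper-zinc superoxide dismutase, was higher in KO oocytes, without overlap. It was at 335, 475, 396 and 295 FPKM in KO1 to KO4, against 225, 199 and 207 FPKM in WT1, WT2 and WT4. The means were 375 ± 78.4 FPKM in KO (SD, n = 4) and 210.3 ± 13.2 FPKM in WT (SD, n = 3), a 1.78-fold ratio. KO oocytes differed more among themselves than WT oocytes did: the highest was 1.61 times the lowest in KO and 1.13 times in WT. The log2 difference was 0.81 as deposited and 1.03 when quantile normalized. With median-ratio scaling it was 0.57, which is below the 1.5-fold limit used here. The reads behind these values were 24405 in KO and 8480 in WT oocytes, so counting error of reads is small beside the spread between libraries. That spread includes any variation from amplifying the cDNA of each cell, which was not measured here. Only 3.42% of the Sod1 transcript windows of 50 bases occur in another annotated gene, a processed pseudogene at 0.323 FPKM or less in every library.

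Sod2, the mitochondrial manganese enzyme, overlapped between genotypes. Its levels were 4.87, 7.44, 8.57 and 6.38 FPKM in KO1 to KO4, against 5.33, 5.49 and 5.23 FPKM in WT oocytes. The WT oocytes were close together and the KO oocytes lay on both sides of them. The log2 difference of 0.28 was 0.04 when quantile normalized. Of its windows, 21.0% occur in 415 other annotated genes, so part of its level is uncertain. Within an oocyte the Sod1 to Sod2 ratio, which a scale factor per library cannot alter, was 46.2 to 68.7 in KO and 36.3 to 42.2 in WT oocytes, without overlap. Since Sod1 was already seen to lie apart, this gap follows in part from the Sod1 values above. The Sod1 to Prdx1 ratio was 0.275 to 0.571 in KO and 0.242 to 0.296 in WT oocytes, with overlap. Ccs, the chaperone that loads copper into SOD1, was at 0.611 ± 0.421 FPKM in KO and 1.40 ± 0.319 FPKM in WT oocytes, with all KO oocytes below all WT oocytes and a log2 difference of -0.61. Ccs passed the filter through the 3 WT oocytes alone, so its place among the lower genes follows from the group where it is high. Of the other superoxide removal genes, Sod1 was over 1.5-fold higher, beside 22.6% of all genes, and Sod2 was not. The secreted dismutase Sod3 was at 0 in every library.

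**Figure D1:**
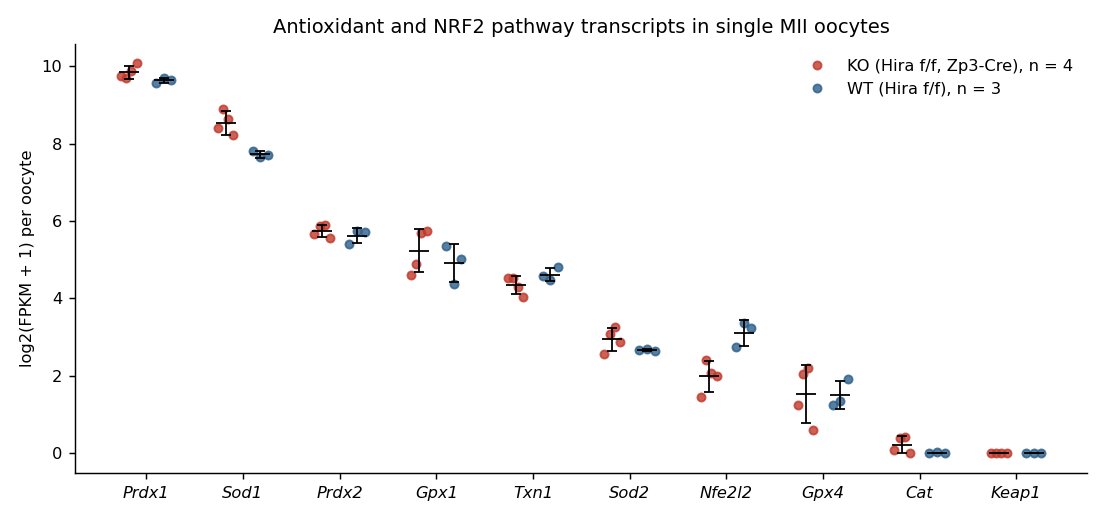
Level of each of the 10 genes as log2(FPKM + 1), 1 point per oocyte, with KO (red, n = 4) left of WT (blue, n = 3) and genes ordered by mean level. Bars are the mean ± SD over oocytes. In the deposited values shown, Sod1 and Prdx1 lie higher and Nfe2l2 lower in KO without overlap (the Prdx1 difference is -0.04 with median-ratio scaling), while Cat and Keap1 lie at or near 0.

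Prdx1 (ENSMUSG00000028691), a cytosolic peroxiredoxin and the most abundant of the 10 genes, was slightly higher in KO oocytes and did not overlap. Values were 852, 832, 935 and 1074 FPKM in KO1 to KO4, against 760.2, 824 and 804 FPKM in WT1, WT2 and WT4. The closest pair, KO2 and WT2, differed by less than the SD of either group. Mean levels were 923 ± 110 FPKM in KO and 796 ± 32.5 FPKM in WT oocytes, a 1.16-fold ratio, and Prdx1 ranked 37 among all genes in the table by mean level. Its log2 difference of 0.21 lay next to the median of all genes, and it was 0.43 when quantile normalized but -0.04 when scaled by median ratios. Prdx1 shares 8.81% of its transcript windows with 75 other annotated genes, among them processed pseudogenes, so a part of its reads cannot be assigned with certainty.

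Prdx2, another cytosolic peroxiredoxin, known for its abundance in red blood cells, was at 49.5, 57.8, 58.1 and 46.4 FPKM in KO1 to KO4, against 41.4, 52.5 and 51.5 FPKM in WT oocytes. The groups overlapped, and the log2 difference of 0.13 became -0.11 with median-ratio scaling. Prdx2 overlaps Junb and Rnaseh2a on the opposite strand in the annotation, and shares 372 of its 3089 windows with these and other genes, but neither exceeded 0.33 FPKM in any library. Among the other peroxiredoxin genes, mitochondrial Prdx3 averaged 2.65 ± 1.61 FPKM in KO and 3.45 ± 0.962 FPKM in WT oocytes, with overlap. Prdx6, which also acts on oxidized phospholipids, averaged 1.57 ± 0.740 FPKM in KO and 1.26 ± 0.252 FPKM in WT oocytes. Of 7 peroxiredoxin and sulfiredoxin genes, 4 passed the filter and none was over 1.5-fold apart. Srxn1, which repairs overoxidized peroxiredoxins, was at 0 in every library.

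Gpx1, the main cytosolic glutathione peroxidase, a selenoprotein, varied more between oocytes than between genotypes. It was at 23.5, 28.8, 50.5 and 52.0 FPKM in KO1 to KO4, against 40.2, 19.8 and 31.2 FPKM in WT oocytes. The highest oocyte was 2.21 times the lowest in KO and 2.04 times in WT, which exceeds the 1.27-fold ratio of the means. Gpx4, the selenoprotein that reduces lipid peroxides in membranes, was at 1.35, 3.17, 3.59 and 0.52 FPKM in KO1 to KO4, against 1.38, 1.56 and 2.78 FPKM in WT oocytes. The KO oocytes lay on both sides of the WT oocytes, and the log2 difference of 0.01 ran from -0.21 to 0.32 when single oocytes were left out. Reads for Gpx4 ranged from 33 in KO4 to 275 in KO3. Gpx4 shares 34.7% of its windows with 2 pseudogene sequences, so its level is uncertain.

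The other glutathione peroxidase genes above the filter were Gpx3 and Gpx6. Gpx3, a secreted plasma enzyme, averaged 4.04 ± 1.18 FPKM in KO and 2.40 ± 1.04 FPKM in WT oocytes with overlap, and its log2 difference of 0.58 was just under the 1.5-fold limit. Gpx6, known as an olfactory form, averaged 45.3 ± 14.7 FPKM in KO and 37.8 ± 4.43 FPKM in WT oocytes, also with overlap. Its mean over the 7 oocytes, 42.1 FPKM, was above that of Gpx1, 35.1 FPKM. None of the 4 genes of the glutathione peroxidase and catalase list that passed the filter was over 1.5-fold apart, and Gpx2, Gpx5, Gpx7 and Gpx8 were at 0 in every library.

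Catalase, the peroxisomal enzyme that splits hydrogen peroxide, was nearly absent. KO1 to KO4 held 4, 23, 33 and 0 Cat reads, and WT1, WT2 and WT4 held 0, 1 and 0 reads. Levels did not exceed 0.34 FPKM, below the filter in every oocyte. The ratio of read rates was 37.5, with an exact 95% interval of 6.47 to 1504 for counting error alone, but KO4 had none, so the groups overlapped. Keap1 was at the limit of detection: KO2, KO3 and KO4 held 1 read each, and KO1 and the WT oocytes held none. No fold is given, since neither genotype exceeded 3 reads in all. Keap1 shares 7.78% of its windows with an antisense gene on the opposite strand.

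Thioredoxin, Txn1, was at 21.9, 22.1, 18.5 and 15.5 FPKM in KO1 to KO4, against 22.7, 21.3 and 26.9 FPKM in WT oocytes. The groups overlapped at KO1, KO2 and WT2. The log2 difference was -0.27 as deposited, -0.41 when quantile normalized and -0.51 when scaled by median ratios, within the 1.5-fold limit in each. Txnip, which binds thioredoxin and inhibits it, was lower in KO without overlap: 94.7, 86.6, 106 and 71.1 FPKM in KO1 to KO4, against 148, 141 and 141 FPKM in WT oocytes. Its log2 difference was -0.68, and it was named after its values were seen. An antisense gene covers 15.7% of its windows and was at 0.55 to 1.07 FPKM in KO and 0.87 to 1.64 FPKM in WT oocytes. The Txn1 to Txnip ratio within an oocyte was 0.174 to 0.255 in KO and 0.152 to 0.191 in WT oocytes, with overlap.

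Of 16 thioredoxin and glutaredoxin genes, 11 passed the filter, 4 over 1.5-fold higher (Msra, Msrb3, Glrx5 and Txnrd3) and 1, Txnip, over 1.5-fold lower, beside 22.6% and 7.92% of all genes. The median log2 difference was 0.30, beside 0.18 for all genes. Under quantile normalization and under median-ratio scaling, Msrb3 (0.54 and 0.53), Glrx5 (0.52 and 0.52) and Txnrd3 (0.41 and 0.47) were within 1.5-fold, while Msra and Txnip stayed past it. Msra, which repairs oxidized methionine, was at 0.51, 1.77, 1.64 and 3.38 FPKM in KO1 to KO4, against 0, 0.31 and 0.44 FPKM in WT oocytes. Its log2 difference was 1.09, but it passed the filter through KO2, KO3 and KO4 alone, so its place among the higher genes follows from the group where it is high. The related Msrb3 averaged 11.8 ± 2.75 FPKM in KO and 7.61 ± 5.76 FPKM in WT oocytes, and mitochondrial Glrx5, an iron-sulfur cluster factor, was at 5.95 to 17.6 FPKM in KO and 3.36 to 9.18 FPKM in WT oocytes, both with overlap. Txnrd3, a thioredoxin reductase known from testis and named after its values were seen, averaged 5.90 ± 1.30 FPKM in KO and 3.37 ± 1.00 FPKM in WT oocytes, without overlap. The closest pair was KO1 at 4.55 and WT1 at 4.47 FPKM. The most abundant gene of the list was the glutaredoxin Glrx, at 177 ± 27.7 FPKM in KO and 167 ± 21.1 FPKM in WT oocytes, with a log2 difference of 0.08.

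Nfe2l2 (ENSMUSG00000015839), which encodes NRF2, was lower in KO oocytes without overlap and had the largest difference of the 10 genes. It was at 1.76, 4.33, 3.20 and 2.96 FPKM in KO1 to KO4, against 5.66, 9.36 and 8.36 FPKM in WT1, WT2 and WT4. The means were 3.06 ± 1.05 FPKM in KO (SD, n = 4) and 7.79 ± 1.92 FPKM in WT oocytes (SD, n = 3), so the KO level was 39.3% of the WT level. These values rest on 133 reads in KO1 and 300 to 404 in the other KO oocytes, against 452, 882 and 597 reads in WT oocytes. The log2 difference was -1.13 as deposited, -1.35 when quantile normalized and -1.33 when scaled by median ratios. Leaving out any single oocyte moved it between -1.32 and -0.96. No other annotated transcript shares a 50-base window with Nfe2l2. Over the 7 oocytes, the genes whose levels were nearest to it in log2(FPKM + 1) were Rnf5, Prepl and Gm12668, at a root-mean-square difference of 0.30, 0.33 and 0.33.

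Sod1 and Nfe2l2 thus stood on opposite sides, and their ratio within an oocyte does not depend on a scale factor per library. The Sod1 to Nfe2l2 ratio was 191, 110, 124 and 99.6 in KO1 to KO4, against 39.7, 21.3 and 24.8 in WT1, WT2 and WT4. Since both genes were chosen for lying wholly apart between genotypes, the gap between these ratios follows from the values above and adds nothing to them.

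**Figure D2:**
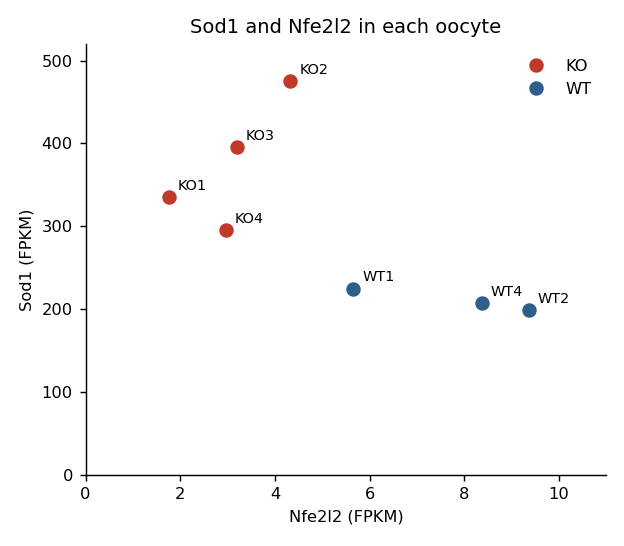
Sod1 against Nfe2l2 in each of the 7 oocytes, both in FPKM on linear axes from 0. The 4 KO oocytes (red) lie at the upper left, at 295 FPKM or more for Sod1 and 4.33 FPKM or less for Nfe2l2, and the 3 WT oocytes (blue) at the lower right.

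Of the 8 members above the filter, 1 was over 1.5-fold higher (Sod1) and 1 over 1.5-fold lower (Nfe2l2), while over all 8033 genes 22.6% were that much higher and 7.92% that much lower. KO oocytes lay above WT oocytes without overlap for 2 members (Sod1 and Prdx1) and below for 1 (Nfe2l2), beside 18.9% and 8.94% of all genes. Counts of 1 or 2 of 8 genes lie near these shares and are no result about the group, and with median-ratio scaling 0 members were over 1.5-fold higher. The shares of all genes were 14.8% higher and 14% lower with that scaling, and 14.4% and 12.7% when quantile normalized. The median difference of the 8 genes was 0.17, next to 0.18 for all genes. Their summed level with Cat and Keap1 was 1290 to 1493 FPKM in KO and 1102 to 1137 FPKM in WT oocytes, most of it Prdx1 and Sod1.

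**Figure D3:**
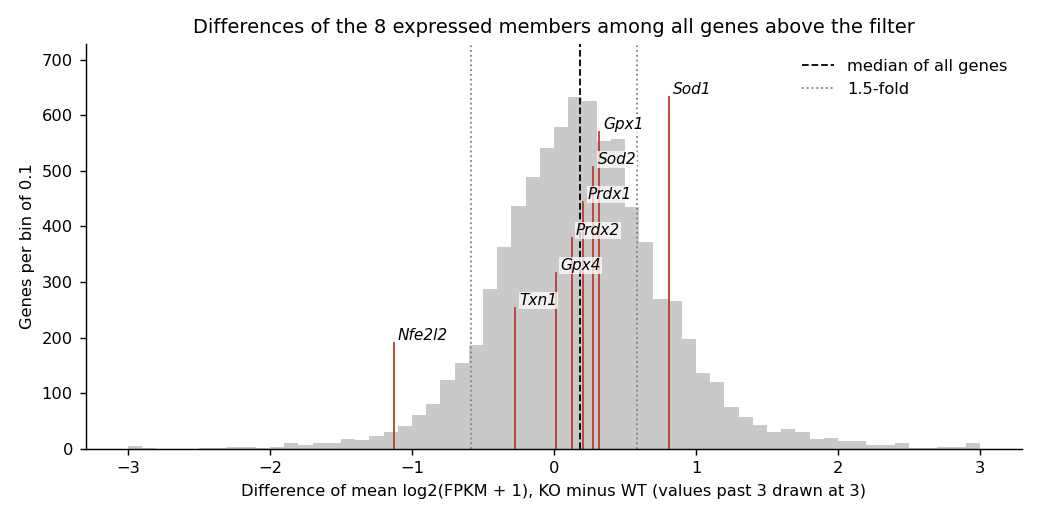
Histogram of differences on the log2(FPKM + 1) scale (KO mean minus WT mean) for the 8033 genes above the filter, with the 8 members drawn as red lines whose heights only separate the labels. The dashed line is the median of all genes (0.18) and dotted lines mark 1.5-fold. Sod1 (0.81) and Nfe2l2 (-1.13) lie outside the dotted lines and the other 6 inside.

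**Figure D4:**
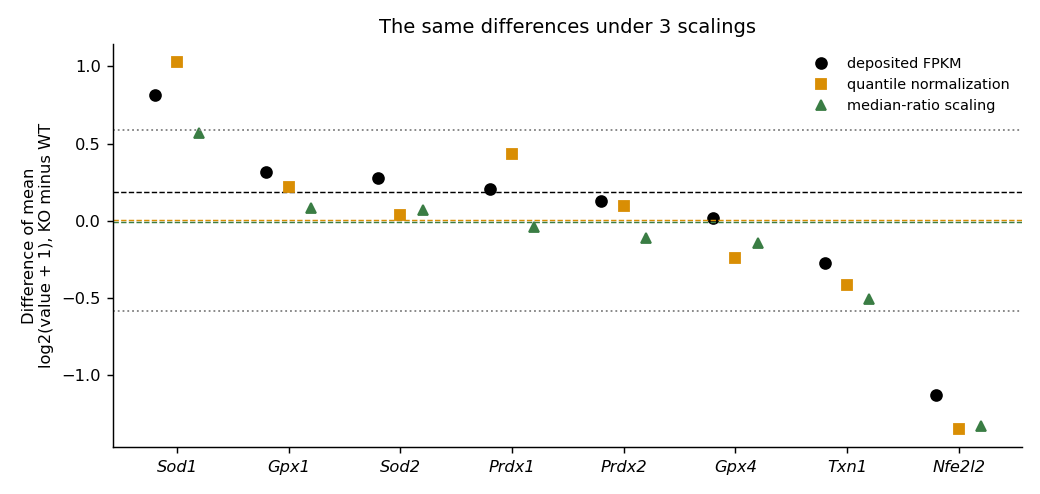
The same differences for the 8 members under the deposited FPKM (circles), quantile normalization (squares) and median-ratio scaling (triangles), with the median of all genes under each as a dashed line and 1.5-fold as dotted lines. Nfe2l2 is below the lower limit in each, and Sod1 falls just inside the upper limit with median-ratio scaling (0.57).

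In order of mean level the genes were Prdx1, Sod1, Prdx2, Gpx1, Txn1, Sod2, Nfe2l2, Gpx4, Cat and Keap1. Ranges over the 7 oocytes did not overlap between Prdx1 and Sod1, Sod1 and Prdx2, Txn1 and Sod2, or Gpx4 and Cat. Neighbours whose ranges overlapped were Prdx2 and Gpx1, Gpx1 and Txn1, Sod2 and Nfe2l2, Nfe2l2 and Gpx4, and Cat and Keap1. Sod2 exceeded Nfe2l2 in 4 of 7 oocytes, which were the KO oocytes. Levels of different genes depend on the gene length behind the FPKM: reads per FPKM implied 591 bases for Sod1, 0.149 times the summed exons of the reference, and 0.349 times for Sod2 and 0.537 times for Gpx1. For the other 7 genes the implied length was 0.914 to 1.58 times the reference. Comparisons of a gene with itself between oocytes are not touched by this.

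Of 17 genes that control NRF2, 10 passed the filter, 3 over 1.5-fold higher (Mafg, Gsk3b and Nfe2l1) and 1, Nfe2l2 itself, over 1.5-fold lower. As deposited, these counts lie near the 22.6% and 7.92% of all genes. When quantile normalized, Mafg, Gsk3b and Nfe2l1 were at 0.52, 0.44 and 0.41, none past 1.5-fold, and with median-ratio scaling only Mafg (0.61) of these was past it. The median log2 difference was -0.12, but its sign rested on single oocytes: it was 0.07 without KO4, 0.03 without WT1 and -0.29 without WT4. Mafg, a small MAF partner with which NRF2 binds DNA, averaged 3.12 ± 0.420 FPKM in KO and 1.52 ± 0.904 FPKM in WT oocytes, without overlap but with KO1 at 2.60 and WT1 at 2.56 FPKM. Gsk3b, a kinase that marks NRF2 for KEAP1-independent breakdown, averaged 6.78 ± 0.994 FPKM in KO and 3.90 ± 0.958 FPKM in WT oocytes. Nfe2l1, the related factor NRF1, averaged 2.36 ± 0.500 FPKM in KO and 1.13 ± 0.311 FPKM in WT oocytes, and neither of these overlapped. Rbx1, the RING subunit of the CUL3 ligase, was the most abundant gene of the list at 108 ± 9.38 FPKM in KO and 153 ± 14.1 FPKM in WT oocytes, lower in KO without overlap at a log2 difference of -0.50. Bach2, a repressor that competes for the same DNA elements and named after its values were seen, was also lower without overlap, at 1.45 ± 0.191 FPKM in KO and 2.53 ± 0.268 FPKM in WT oocytes. Past 1.5-fold on the lower side when quantile normalized were Nfe2l2, Bach2 (-0.79) and Btrc (-0.71), beside 12.7% of all genes. With median-ratio scaling they were Nfe2l2, Rbx1 (-0.75), Bach2 (-0.68) and Btrc (-0.66), beside 14% of all genes. Btrc was also named after its values were seen.

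Of 24 known NRF2 target genes, 13 passed the filter, 5 over 1.5-fold higher (Gclc, Ftl1, Gstp1, Taldo1 and Gsta4) and none that much lower, beside 22.6% and 7.92% of all genes. Their median log2 difference was 0.53, beside 0.18 for all genes. It was 0.31 when quantile normalized and 0.34 when scaled by median ratios, where the medians of all genes were 0.00 and -0.01. Without WT1 it was 0.83. Gclc, the catalytic subunit that starts glutathione synthesis, was at 8.06, 4.29, 5.82 and 2.79 FPKM in KO1 to KO4, against 0.53, 0.97 and 1.36 FPKM in WT oocytes. It was 5.48-fold higher in KO and no KO oocyte overlapped WT. Of the WT oocytes only WT4 reached 1 FPKM, so Gclc passed the filter through the KO oocytes. Its place among the higher genes thus follows from the group where it is high. Ftl1, the ferritin light chain that stores iron, was at 19.1, 40.7, 37.7 and 42.2 FPKM in KO1 to KO4, against 11.2, 5.86 and 17.9 FPKM in WT oocytes. KO1 was close to WT4, and 58.4% of the Ftl1 windows occur in other genes, so its level is uncertain. Gstp1, a glutathione transferase that shares 33.7% of its windows with Gstp2 and a pseudogene, was at 17.0 to 38.9 FPKM in KO and 6.07 to 26.0 FPKM in WT oocytes, with overlap. Gsta4, another glutathione transferase, was at 22.1 to 43.7 FPKM in KO and 11.5 to 23.1 FPKM in WT oocytes, also with overlap.

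Taldo1, of the pentose phosphate pathway, averaged 52.7 ± 3.61 FPKM in KO and 29.0 ± 4.68 FPKM in WT oocytes without overlap. Me1, malic enzyme, was the most abundant target at 115 ± 20.8 FPKM in KO and 133 ± 31.3 FPKM in WT oocytes, with overlap. Nqo1, a quinone reductase often used as an NRF2 marker, was at 22.4 ± 5.89 FPKM in KO and 19.5 ± 2.33 FPKM in WT oocytes, and Hmox1, heme oxygenase, was at 0 in every library. Taldo1, Gsta4, Nqo1 and Hmox1 were named after their values were seen. Of the 24 target genes, 19 had a promoter window, with 26 windows in all, and Gclc and Gsta4 had none. The response element core was in 7 of the 26 windows, beside 12.4% of all windows and 14.8% of windows of genes above the filter. The windows of Ftl1, Taldo1 and Gstp1 held no match, and sequence outside the windows was not searched.

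**Figure D5:**
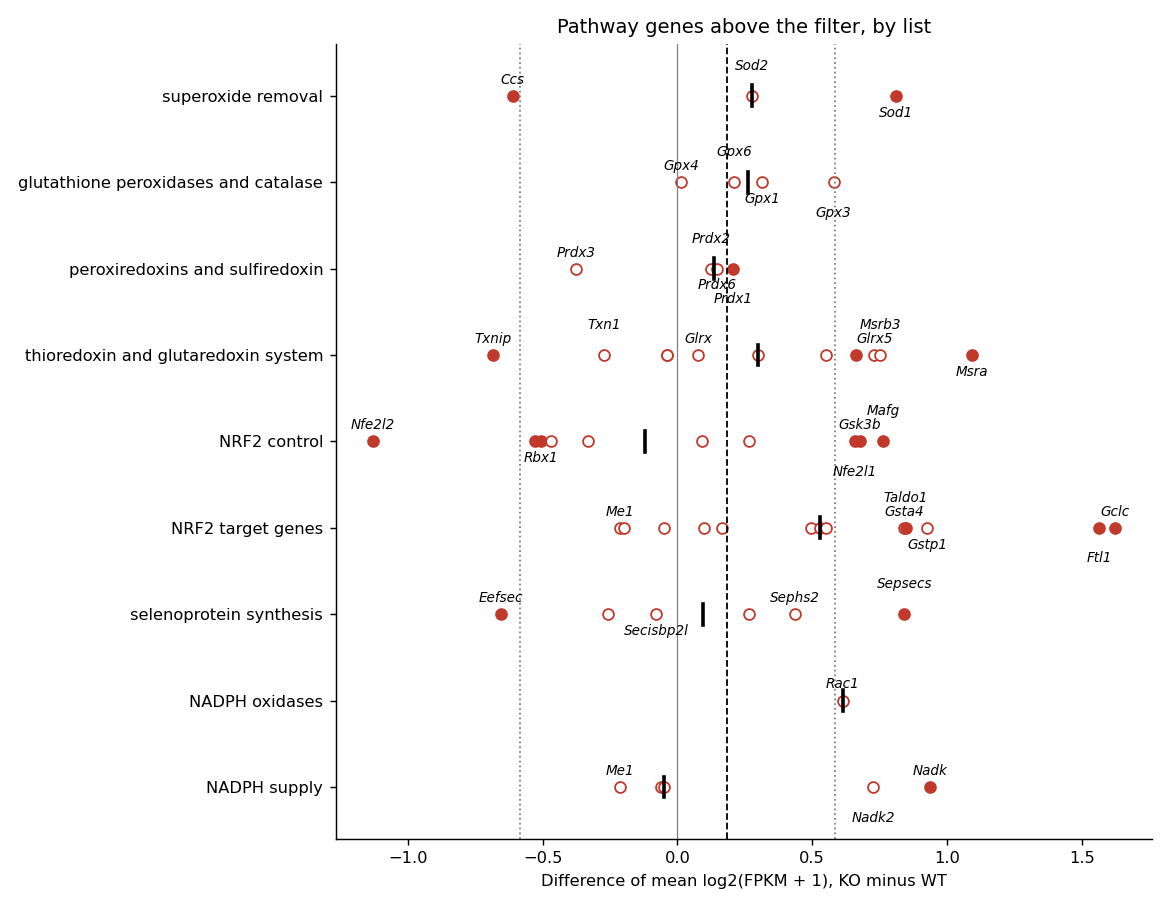
Differences on the log2(FPKM + 1) scale (KO mean minus WT mean) for the genes above the filter in each of 9 pathway lists, with named genes labelled. Filled points have no overlap between genotypes and open points overlap, black ticks are list medians, the dashed line is the median of all genes (0.18) and dotted lines mark 1.5-fold. NRF2 targets extend furthest to the right (Gclc, 1.62) and Nfe2l2 furthest to the left (-1.13).

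Gpx1 and Gpx4 need selenocysteine. Of 9 genes that make and insert it, 6 passed the filter, 1 over 1.5-fold higher (Sepsecs) and 1 over 1.5-fold lower (Eefsec), which is near the 22.6% and 7.92% of all genes. Their median log2 difference was 0.09, and -0.03 to 0.20 when single oocytes were left out. Sepsecs, which forms selenocysteine on its transfer RNA, was at 10.3 to 13.8 FPKM in KO and 4.70 to 7.39 FPKM in WT oocytes. Eefsec, the elongation factor that brings that transfer RNA to the ribosome, averaged 1.35 ± 0.603 FPKM in KO and 2.61 ± 0.279 FPKM in WT oocytes. Neither of these overlapped between genotypes. Sephs2, which makes the selenium donor, averaged 8.13 ± 0.653 FPKM in KO and 7.05 ± 5.99 FPKM in WT oocytes, with WT1 far above the other WT oocytes at 13.9 FPKM. The most abundant gene, Secisbp2l, was at 34.6 to 45.3 FPKM in KO and 33.4 to 46.1 FPKM in WT oocytes.

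NADPH oxidases, which make superoxide or hydrogen peroxide, were low. Of their 13 genes only the shared regulator Rac1 passed the filter, at 50.6 ± 7.87 FPKM in KO and 34.0 ± 13.4 FPKM in WT oocytes with overlap. Its log2 difference was 0.61 as deposited, and within 1.5-fold when quantile normalized (0.54) or scaled by median ratios (0.38). Of its windows, 50.3% are shared with Daglb on the opposite strand, itself at 7.67 to 23.0 FPKM in KO and 15.3 to 28.7 FPKM in WT oocytes. Cybb, the catalytic subunit of the phagocyte oxidase, was below the filter at 0.227 to 0.889 FPKM in KO and listed at 0 in every WT oocyte, and was named after its values were seen. Of 8 genes that supply NADPH, on which both glutathione and thioredoxin reduction depend, 5 passed the filter, 2 over 1.5-fold higher (Nadk and Nadk2) and none that much lower, beside 22.6% and 7.92% of all genes. Their median log2 difference was -0.05, and -0.11 to 0.13 when single oocytes were left out. Nadk, the cytosolic kinase that makes NADP, averaged 12.5 ± 0.969 FPKM in KO and 6.34 ± 2.58 FPKM in WT oocytes without overlap. Its mitochondrial counterpart Nadk2 averaged 1.78 ± 0.532 FPKM in KO and 0.723 ± 0.599 FPKM in WT oocytes, with overlap, and was within 1.5-fold when quantile normalized (0.52). Of the WT oocytes only WT1 reached 1 FPKM for Nadk2, so it passed the filter through the KO oocytes, where it is high.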

How the data were processed

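RNA was measured in 7 single oocytes, with cDNA amplified directly from each cell, ERCC spike-in RNA added, and libraries sequenced on 2 lanes, per the labels' protocols. The authors deposited FPKM, not logged, with 1 value per Ensembl gene and oocyte. Per the submitters' processing notes, the tools were HTSeq, edgeR 3.1.10, TopHat and TopHat2 2.0.2, Bowtie 0.12.8 and Bowtie2, with mm9 as build and no step given for each. Symbols came from a GRCm38 annotation and named 87.4% of identifiers. The strand of reads is not given in the sources used here.

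Differences are of mean log2(FPKM + 1), KO minus WT, so they understate changes of low genes, and "over 1.5-fold" is on that scale. The filter was at least 1 FPKM in at least 3 libraries. Depth was recovered because values of 1 gene are whole multiples of what 1 read is worth. All 15863 genes with values in 2 or more libraries came out whole within 0.01. So many multiples were tried that a gene with values in few libraries would nearly always fit. For such genes a whole result is therefore no check of the recovery. These are the smallest counts that fit, and intervals cover counting error only. On simulated oocytes 99.2% of 16243 genes were recovered exactly, and 84% and 76% of genes changed 2-fold up and down passed 1.5-fold. The simulation gave every gene the same spread between oocytes and no general shift between genotypes. These shares are therefore not the sensitivity for the real oocytes. Pathway genes were named by a rule: the 3 with the largest difference and the most abundant per list, members aside. The members, lists and rule were chosen with earlier results of these data known. Alternatives were 2 pseudocounts, 2 scalings, 2 filters and each oocyte left out. Analyses used Python 3.11.15 with numpy 2.4.6, pandas 2.3.3 and scipy 1.17.1.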

Additional observations from a re-analysis of the deposited data

Results flagged for a closer look

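Among 35 genes looked at, 3 had a KO oocyte far from the other 3, where chance gives about 1 in 20 groups. The gap to the nearest oocyte, as a share of the KO range, was 0.926 for Hira (KO3 at 0.024 FPKM on 5 reads, below the others). It was 0.831 for Msrb3 (KO1 at 15.9 FPKM, above) and 0.982 for Rac1 (KO3 at 38.8 FPKM, below). None of the 10 antioxidant genes was among them, and groups of 3 were not looked at.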

How the results depend on the processing

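Of 273 recomputed values, 241 stayed within and 32 moved past a limit, which was the spread between oocytes for differences and medians and 1.5 times for counts of members. None of the differences over 1.5-fold changed sign. Median-ratio scaling gave 0.57 for Sod1, -0.037 for Prdx1, -0.11 for Prdx2, -0.51 for Txn1 and -0.076 for the members' median, left 0 members over 1.5-fold higher, and gave list medians of -0.076 for peroxiredoxins, -0.14 for selenoprotein synthesis and -0.27 for NADPH supply. With it 14.8% of all genes were over 1.5-fold higher and 14% lower. Quantile normalization gave 0.036 for Sod2, 0.43 for Prdx1 and -0.41 for Hira, and list medians of 0.036 for superoxide removal, 0.0025 for peroxiredoxins and 0.31 for NRF2 targets, with 14.4% of all genes higher and 12.7% lower. A pseudocount of 0.1 gave 1.16 for Cat, 0.069 for Keap1 and -1.25 for Hira. A pseudocount of 5, which shrinks low genes, gave 0.049 for Cat, 0.0014 for Keap1, -0.066 for Hira, -0.66 for Nfe2l2 and 0.25 for NRF2 targets. With no filter the list medians were 0.068 for thioredoxins and glutaredoxins, 0.18 for NRF2 targets, 0.26 for selenoprotein synthesis and 0 for NADPH oxidases, and with a filter at 10 FPKM 0.81 for superoxide removal, 0.018 for thioredoxins and glutaredoxins and 0.26 for selenoprotein synthesis. Apart from fewer or more genes per list under the filters, the cause was not tested. Leaving out each oocyte in turn gave 0.69 to 0.92 for Sod1, -1.32 to -0.96 for Nfe2l2, 0.04 to 0.54 for Gpx1, 0.033 to 0.18 for the peroxiredoxin median (lowest without KO3) and 0.37 to 0.83 for the NRF2 target median (highest without WT1), and the members past 1.5-fold stayed at 1 higher and 1 lower. At 60 Cat reads in all KO oocytes and 3 for Keap1, depth limits what can be said of those genes. No paired analysis was possible because oocytes of the 2 genotypes share a number only, with no animal, litter or day named.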
